A study of Mus musculus with 40 samples.

Results

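Immediate early genes are switched on within minutes of neuronal activity or another acute stimulus, without new protein synthesis. A set of 37 such genes named by symbol was described here, each by the row of the deposited table with the highest mean signal. All 37 were on the array, among 19505 genes, and 34 of them passed a filter on dim signals that left 14978 genes for testing. Klf4, Maff and Csrnp1 did not pass it. Their levels, in log2 units as all levels here, stayed between 2.90 and 4.38 for Klf4, 3.32 and 4.46 for Maff, and 3.15 and 5.01 for Csrnp1.

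The study compared mice of the genotypes labelled Ala92D2HY and Thr92D2HY, which carry alanine or threonine at position 92 of the type 2 deiodinase, the Dio2 enzyme that converts thyroxine to active thyroid hormone. RNA from amygdala, cerebellum, hippocampus, prefrontal cortex and striatum was hybridised to 40 Affymetrix arrays, 4 Ala and 4 Thr arrays in each region. All animals were 8 to 10 weeks old, of the background written C56BL/6 in the labels, and were kept at 22°C on chow, so housing and diet were shared by every group. The labels give neither how the alleles were made nor which animal gave which array, so each p-value reflects how these arrays spread, which may be technical variation, and 4 arrays a group limit the precision. The arrays are called here by the number in their labels, 1 to 40. Array medians lay between 6.12 and 6.32, and negative control medians between 5.73 and 6.35, so a level near or under that range was close to background. In the striatum, all 6 of the striatal neuron markers on the array were above the highest negative control median, as were all 6 of the granule cell and Purkinje cell markers in the cerebellum. No pair of arrays was identical, and arrays of 1 group correlated at 0.969 to 0.993.

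The best known members encode transcription factors. Fos and Jun proteins pair to form AP-1, Egr proteins are zinc finger factors, Nr4a proteins are orphan nuclear receptors, and Npas4 is a neuronal factor induced by calcium entry. Other members act at synapses or damp the signals that induced them. Arc governs AMPA receptor uptake, Homer1 encodes a scaffold of metabotropic glutamate receptors, and Dusp phosphatases remove phosphate from MAP kinases. Induction runs through calcium, cyclic AMP and MAP kinase signals to the factors CREB and SRF, which bind the cyclic AMP response element and the CArG box of many of these promoters.

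Promoter sequences from RefSeq (build GRCm38.p6) were held for 29 of the 37 members, each 250 bases before to 50 bases after a transcription start. The 250 bases before the start are printed for 6 members whose levels the results turn on. In capitals stand the full cyclic AMP response element TGACGTCA, its shorter core TGACG on either strand (CGTCA on the other), which the full element contains, and, in Dusp5, a pair of adjoining CArG boxes. They lie at chr12:85473640-85473889 (Fos, plus strand), chr13:110394794-110395043 (Plk2, plus), chr15:101266596-101266845 (Nr4a1, plus), chr17:26508473-26508722 (Dusp1, minus), chr19:4989972-4990221 (Npas4, minus) and chr19:53528895-53529144 (Dusp5, plus).
Fos: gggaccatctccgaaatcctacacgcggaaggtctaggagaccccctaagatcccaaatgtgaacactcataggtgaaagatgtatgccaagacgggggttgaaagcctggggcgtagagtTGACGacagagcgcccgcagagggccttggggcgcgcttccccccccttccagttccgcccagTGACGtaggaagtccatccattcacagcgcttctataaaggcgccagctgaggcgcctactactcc
Plk2: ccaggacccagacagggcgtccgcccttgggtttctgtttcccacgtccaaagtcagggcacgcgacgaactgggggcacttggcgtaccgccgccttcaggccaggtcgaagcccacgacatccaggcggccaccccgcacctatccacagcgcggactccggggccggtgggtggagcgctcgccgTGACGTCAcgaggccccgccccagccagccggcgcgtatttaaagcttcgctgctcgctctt
Nr4a1: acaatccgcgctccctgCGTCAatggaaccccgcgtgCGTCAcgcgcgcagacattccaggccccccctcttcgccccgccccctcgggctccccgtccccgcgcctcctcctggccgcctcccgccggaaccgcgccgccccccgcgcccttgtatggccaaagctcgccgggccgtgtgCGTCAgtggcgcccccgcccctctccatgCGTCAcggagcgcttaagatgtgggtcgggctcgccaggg
Dusp1: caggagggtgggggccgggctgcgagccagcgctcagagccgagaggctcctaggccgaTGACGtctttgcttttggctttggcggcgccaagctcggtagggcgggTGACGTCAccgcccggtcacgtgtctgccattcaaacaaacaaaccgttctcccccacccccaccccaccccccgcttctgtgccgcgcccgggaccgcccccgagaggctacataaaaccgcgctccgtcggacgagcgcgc
Npas4: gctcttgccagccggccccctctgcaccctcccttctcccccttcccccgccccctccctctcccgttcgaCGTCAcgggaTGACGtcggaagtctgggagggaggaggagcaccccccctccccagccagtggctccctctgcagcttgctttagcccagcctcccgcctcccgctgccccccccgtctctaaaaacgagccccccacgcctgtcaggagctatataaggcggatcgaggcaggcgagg
Dusp5: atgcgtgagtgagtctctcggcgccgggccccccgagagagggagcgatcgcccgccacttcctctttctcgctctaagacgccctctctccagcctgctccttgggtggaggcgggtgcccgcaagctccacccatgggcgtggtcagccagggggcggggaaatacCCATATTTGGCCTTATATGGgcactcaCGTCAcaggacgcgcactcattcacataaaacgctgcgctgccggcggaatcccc

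The full element TGACGTCA was in the windows of 4 members, Dusp1, Btg2, Maff and Plk2, which is 13.8% of the 29, against 1.77% of 27025 genes with a window. The core TGACG was in 19 members (65.5%), against 19.8% of all genes, and the Nr4a1 stretch above holds it 4 times. Fos has a core from base -66 to -62 before its start. A CArG box was in the windows of Egr2 and Dusp5 (6.90%), against 1.62% of all genes. These matches describe letters in a window and were not tied to binding or to any level below.

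Between genotypes, none of the 34 tested members passed the test in any region. Counts of members called at an adjusted p under 0.05 were 0 in each region, in the average of the 5 regions, and in the test of whether the genotype difference varied between regions. Of all 14978 genes, limma called 0.120% in amygdala, 0.00% in cerebellum, 0.00% in hippocampus, 0.00% in prefrontal cortex, 0.0801% in striatum, 0.0200% in the average and 0.0401% for variation between regions. An unadjusted p under 0.05 was held by 0 members in amygdala (5.33% of all genes), 0 in cerebellum (1.94%), 2 in hippocampus (3.14%), 0 in prefrontal cortex (2.33%), 1 in striatum (6.14%), 2 in the average (5.37%) and 0 for variation between regions (2.68%).

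Fos, the founding member of the AP-1 family, is the usual marker of recently active neurons. Amygdala levels of Fos were 7.24, 5.69, 6.78 and 7.49 in the Ala arrays, against 6.86, 6.92, 6.62 and 6.96 in the Thr arrays. Cerebellar levels of Fos were 7.74, 5.90, 7.46 and 7.44 in the Ala arrays, against 6.79, 7.26, 7.06 and 7.83 in the Thr arrays. The lowest array of each region was an Ala array, numbers 2 and 10, and the other Ala arrays lay among or above the Thr arrays. Hippocampal levels of Fos were 6.81, 5.49, 6.76 and 7.06 in the Ala arrays, against 5.74, 6.05, 6.80 and 6.83 in the Thr arrays. Prefrontal levels of Fos were 8.42, 5.47, 7.84 and 8.92 in the Ala arrays, against 7.48, 7.95, 7.97 and 8.58 in the Thr arrays. Striatal levels of Fos were 7.14, 5.45, 5.82 and 6.99 in the Ala arrays, against 6.54, 6.70, 7.71 and 7.01 in the Thr arrays. Again 1 Ala array stood lowest in each region, number 18, 26 or 34, and these 5 lowest values were within or under the range of the negative control medians. Groups overlapped in every region. The difference, Ala minus Thr, ran between -0.64 ± 0.49 (SE) in striatum and 0.17 ± 0.49 in hippocampus, and averaged -0.19 ± 0.22.

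Junb encodes an AP-1 partner of Fos. Amygdala levels of Junb were 9.08, 7.38, 7.14 and 7.99 in the Ala arrays, against 7.77, 7.81, 7.78 and 7.86 in the Thr arrays. Cerebellar levels of Junb were 6.44, 5.65, 6.15 and 6.67 in the Ala arrays, against 6.26, 5.60, 6.01 and 6.24 in the Thr arrays. Hippocampal levels of Junb were 8.45, 7.23, 8.04 and 8.51 in the Ala arrays, against 7.61, 8.07, 8.09 and 7.62 in the Thr arrays. Ala arrays were both the highest and the lowest of the amygdala and reached outside the Thr range on both sides in the hippocampus. Prefrontal levels of Junb were 8.87, 6.73, 7.84 and 8.77 in the Ala arrays, against 8.84, 8.34, 8.20 and 8.41 in the Thr arrays. Striatal levels of Junb were 9.22, 6.93, 7.90 and 8.26 in the Ala arrays, against 8.32, 8.86, 8.39 and 8.74 in the Thr arrays. The lowest arrays of prefrontal cortex and striatum were Ala arrays 26 and 34, and in the striatum Ala array 33 was the highest. Its average difference was -0.08 ± 0.17, and the groups overlapped in all 5 regions.

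Egr1, also known as Zif268, is a zinc finger factor tied to synaptic plasticity. Amygdala levels of Egr1 were 14.01, 10.48, 11.33 and 12.72 in the Ala arrays, against 12.76, 12.16, 12.21 and 13.40 in the Thr arrays. Cerebellar levels of Egr1 were 10.21, 9.21, 10.58 and 11.10 in the Ala arrays, against 10.02, 9.77, 9.71 and 10.07 in the Thr arrays. Hippocampal levels of Egr1 were 13.26, 11.19, 12.83 and 13.56 in the Ala arrays, against 11.36, 11.82, 13.31 and 12.76 in the Thr arrays. In these regions the lowest array was again an Ala array, number 2, 10 or 18, and the highest was also an Ala array. Prefrontal levels of Egr1 were 14.52, 11.95, 14.42 and 15.21 in the Ala arrays, against 14.27, 13.61, 14.42 and 15.37 in the Thr arrays. Striatal levels of Egr1 were 14.67, 13.72, 14.02 and 12.80 in the Ala arrays, against 13.95, 14.64, 15.02 and 15.37 in the Thr arrays. Ala array 26 was lowest in the prefrontal cortex, whereas in the striatum the lowest was Ala array 36. The striatal difference was -0.94 ± 0.59 and the average -0.21 ± 0.26, with overlapping groups throughout.

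Nr4a1, or Nur77, is an orphan nuclear receptor induced by activity, hormones and growth factors. Amygdala levels of Nr4a1 were 10.50, 8.31, 8.85 and 10.13 in the Ala arrays, against 9.38, 9.18, 9.43 and 9.81 in the Thr arrays. Cerebellar levels of Nr4a1 were 8.25, 6.52, 8.11 and 8.68 in the Ala arrays, against 8.08, 8.36, 7.46 and 9.17 in the Thr arrays. Hippocampal levels of Nr4a1 were 10.42, 7.63, 10.31 and 10.79 in the Ala arrays, against 8.63, 9.75, 10.05 and 10.40 in the Thr arrays. Ala arrays 2, 10 and 18 were the lowest of their regions, number 18 at 7.63 with the next array, a Thr array, at 8.63. Prefrontal levels of Nr4a1 were 12.17, 7.98, 12.13 and 12.77 in the Ala arrays, against 11.35, 11.69, 11.56 and 12.59 in the Thr arrays. Striatal levels of Nr4a1 were 12.41, 8.27, 11.12 and 10.85 in the Ala arrays, against 10.19, 11.88, 12.28 and 11.98 in the Thr arrays. Ala arrays 26 and 34 were the lowest here, and the other arrays of these regions did not fall under 10.19. The average difference was -0.35 ± 0.33, and the groups overlapped in each region.

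Arc, the activity-regulated cytoskeletal gene, has an mRNA that travels to dendrites. Amygdala levels of Arc were 8.87, 6.23, 6.85 and 7.46 in the Ala arrays, against 7.20, 6.77, 7.20 and 7.20 in the Thr arrays. Cerebellar levels of Arc were 6.56, 6.14, 6.11 and 6.67 in the Ala arrays, against 6.29, 5.99, 6.14 and 6.44 in the Thr arrays. Hippocampal levels of Arc were 8.96, 7.38, 8.26 and 9.24 in the Ala arrays, against 8.26, 8.92, 9.32 and 8.41 in the Thr arrays. The cerebellar arrays all lay within 1 log2 unit of each other, while Ala arrays 1 and 2 were the highest and the lowest of the amygdala. Prefrontal levels of Arc were 9.66, 6.45, 8.98 and 10.31 in the Ala arrays, against 8.94, 8.81, 9.78 and 10.21 in the Thr arrays. Striatal levels of Arc were 9.62, 7.08, 8.40 and 9.50 in the Ala arrays, against 8.12, 9.55, 9.76 and 9.34 in the Thr arrays. Ala arrays 26 and 34 were lowest, and the remaining arrays of both groups overlapped. The prefrontal difference was -0.59 ± 0.55 and the average -0.19 ± 0.25.

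Npas4 is a transcription factor largely restricted to neurons and induced by calcium. Amygdala levels of Npas4 were 7.34, 5.98, 5.85 and 8.02 in the Ala arrays, against 6.46, 5.50, 6.42 and 7.34 in the Thr arrays. Cerebellar levels of Npas4 were 4.72, 3.58, 4.39 and 5.29 in the Ala arrays, against 5.38, 3.50, 5.25 and 5.76 in the Thr arrays. Hippocampal levels of Npas4 were 7.03, 5.38, 6.07 and 7.16 in the Ala arrays, against 4.76, 5.01, 6.55 and 6.71 in the Thr arrays. Thr arrays were the lowest of these regions (numbers 6, 14 and 21), and the cerebellar levels all lay under the negative control medians apart from 1 Thr array at 5.76. Prefrontal levels of Npas4 were 8.13, 5.38, 7.29 and 10.25 in the Ala arrays, against 8.71, 7.59, 8.51 and 8.87 in the Thr arrays. Striatal levels of Npas4 were 8.54, 5.98, 6.47 and 8.91 in the Ala arrays, against 7.97, 5.79, 9.14 and 8.63 in the Thr arrays. The widest spread was among the Ala arrays of the prefrontal cortex, and Ala array 28 stood highest there. The difference averaged -0.10 ± 0.33, and groups overlapped in all regions.

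**Figure D1:**
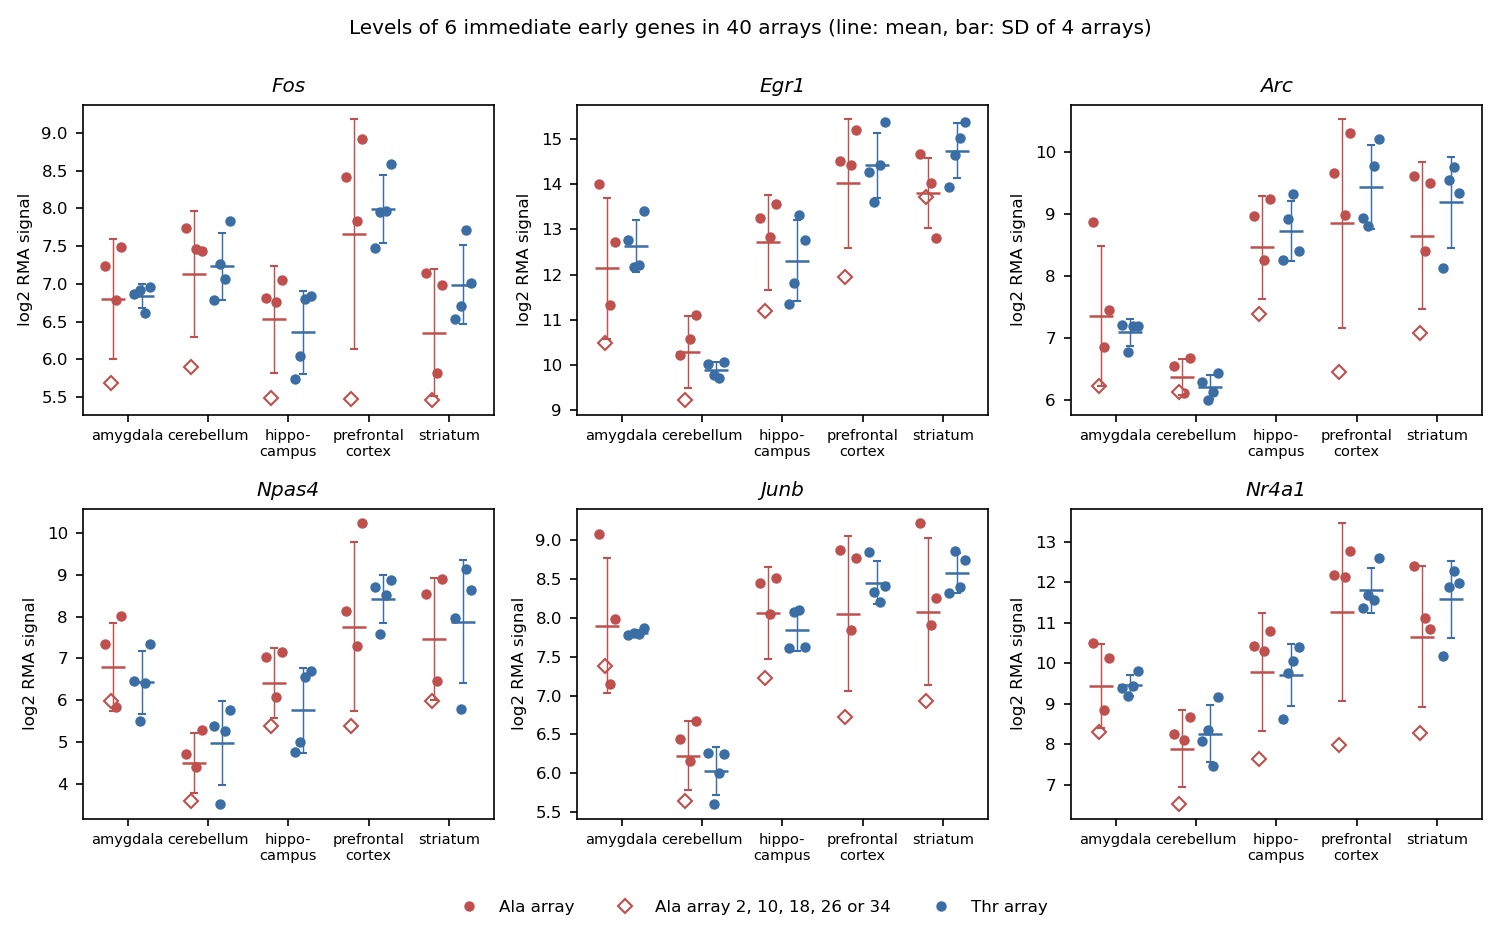
Log2 levels of Fos, Egr1, Arc, Npas4, Junb and Nr4a1 on the 40 arrays, by region on the x axis, with Ala arrays (red) left of Thr arrays (blue), the mean as a line and the SD of 4 arrays as a bar. Open diamonds mark Ala arrays 2, 10, 18, 26 and 34, which hold the lowest Fos and Nr4a1 level of each region.

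The members nearest to the threshold differed between most regions, but Jun and Egr3 were among them in both cerebellum and prefrontal cortex. In the amygdala the nearest were Fbxo33, part of a ubiquitin ligase, at 0.41 ± 0.22, the phosphatase gene Dusp4 at -0.45 ± 0.25 and the ERK phosphatase gene Dusp6 at 0.58 ± 0.35 (adjusted p = 0.950, 0.952 and 0.991). Dusp6 measured 10.30, 9.15, 9.18 and 9.65 in Ala arrays, against 8.99, 9.07, 8.78 and 9.10 in Thr arrays. Every Ala value was above every Thr value, which 1.57% of all genes also showed in this direction. Dusp4 measured 4.40, 4.54, 4.84 and 4.67 in Ala arrays, against 5.01, 4.90, 5.00 and 5.34 in Thr arrays. All Ala values were under the Thr values, as for 1.62% of all genes, and all 8 were under the negative control medians. In the amygdala, Ala array 1 held the highest Dusp6, Egr1, Arc and Junb levels, and the mean log2 level of the striatal neuron markers there was 12.80, against 8.83 to 9.01 in the other Ala arrays and 9.09 to 10.39 in the Thr arrays; the part of this in the result was not tested.

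In the cerebellum the smallest p belonged to Jun, the main AP-1 partner of Fos, at -0.44 ± 0.25, to Egr3 at 0.46 ± 0.29 and to the nuclear receptor gene Nr4a3 at -0.98 ± 0.73, all with adjusted p = 1.00. Jun measured 9.33, 8.95, 9.45 and 9.51 in Ala arrays, against 9.59, 9.83, 9.79 and 9.81 in Thr arrays. The groups did not overlap, as for 1.32% of all genes in this direction. Nr4a3 measured 11.71, 6.59, 10.75 and 10.97 in Ala arrays, against 11.05, 11.24, 9.89 and 11.74 in Thr arrays. Without Ala array 10, the low one, its difference was 0.16. Egr3 was measured by 3 rows of the table. The row kept is annotated as an unmapped transcript, and all 3 had their lowest mean in the cerebellum and their highest in the striatum. These means ran from 5.36 to 10.08 in the row kept, and from 5.91 to 7.78 and 3.27 to 6.87 in the others. The size of regional Egr3 differences thus depends on the row.

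In the hippocampus, the stress kinase gene Plk3 differed by 0.66 ± 0.27, the growth arrest gene Gadd45g by -0.61 ± 0.28 and the Krüppel-like factor gene Klf2 by 0.39 ± 0.21, all with adjusted p = 1.00. Plk3 measured 6.41, 5.76, 7.12 and 6.23 in Ala arrays, against 5.27, 5.90, 6.33 and 5.37 in Thr arrays. Gadd45g measured 7.20, 7.39, 6.44 and 6.90 in Ala arrays, against 7.71, 7.33, 7.36 and 7.98 in Thr arrays. Both pairs of groups overlapped, and Klf2 was under 6.35 on all 40 arrays. Plk2, a kinase gene of synaptic downscaling, measured 13.01, 13.04, 13.04 and 13.65 in Ala arrays, against 12.68, 12.84, 12.87 and 12.58 in Thr arrays. Its groups did not overlap, as for 1.42% of all genes in this direction.

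In the prefrontal cortex, Egr3 differed by -0.33 ± 0.29, Jun by -0.28 ± 0.25 and Arc by -0.59 ± 0.55, all with adjusted p = 1.00. Without Ala array 26, the difference of Arc was 0.21. The choroid plexus markers summed to 690 to 15702 in the Ala arrays of this region, against 358 to 517 in the Thr arrays, and their part was not tested. Groups overlapped for every member in this region and in the striatum, whereas 0.875% of all genes had higher and 0.781% lower Ala values without overlap in prefrontal cortex, and 1.31% and 0.668% in striatum.

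In the striatum, 28 of the 34 members had a negative difference, beside 46.2% of all genes, and the member median was -0.20. Markers of other tissues separated the same arrays. The 8 choroid plexus markers had a summed linear signal of 82998 to 581200 in Ala arrays, against 9327 to 66951 in Thr arrays, with 7 of the 8 above the highest negative control median in Ala arrays and 3 in Thr arrays. The 5 blood cell and liver markers on the array, of 8 listed, summed to 392 to 848 in Ala arrays, against 6900 to 54354 in Thr arrays, with 2 of the 5 above that median in each. The liver genes Alb and Mup2 averaged 7.54 and 8.22 in Ala arrays, against 12.0 and 13.3 in Thr arrays. The blood cell gene Alas2 averaged 5.23 in Ala arrays and 5.07 in Thr arrays, both near background. The 8 mural cell and meninges markers summed to 3226 to 8447 in Ala arrays, against 2612 to 3056 in Thr arrays. By mean log2 level these markers overlapped, at 7.34 to 8.16 in Ala arrays and 7.27 to 7.55 in Thr arrays. The groups overlapped in none of these sums, and their part in the member differences was not tested. Egr4, a zinc finger factor of the Egr family, had the smallest p at -0.99 ± 0.33 (adjusted p = 0.656). It measured 7.71, 6.22, 6.51 and 6.12 in Ala arrays, against 6.78, 8.06, 7.33 and 8.37 in Thr arrays. Ala array 33 lay above 2 Thr arrays, so the groups overlapped. Gadd45b, which encodes a growth arrest protein, differed by -0.51 ± 0.28 and Nr4a2, the nuclear receptor also called Nurr1, by -1.73 ± 1.04 (adjusted p = 0.845 and 0.853). Nr4a2 measured 11.88, 5.74, 9.33 and 6.16 in Ala arrays, against 6.62, 9.28, 12.16 and 11.96 in Thr arrays. Both groups spanned over 5 log2 units. The 5 excitatory neuron markers on the array, of 6 listed, had a mean log2 level of 11.91, 8.70, 10.47 and 8.98 in these Ala arrays, against 8.31, 10.88, 12.10 and 10.87 in these Thr arrays. Arrays high in Nr4a2 were thus high in these markers; their summed linear signal ran between 65813 and 98093 in Ala arrays and between 67920 and 118772 in Thr arrays. Their part in the Nr4a2 result was not tested. In bulk tissue, fewer cells of a type and less RNA per cell cannot be told apart.

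Over the regions, the member median of the genotype difference was 0.11 in amygdala, -0.05 in cerebellum, 0.08 in hippocampus, -0.08 in prefrontal cortex and -0.07 in the average. The median of all genes lay between 0.00 and 0.02 in these comparisons. Negative differences were held by 13 of the 34 members in amygdala (48.9% of all genes), 20 in cerebellum (49.1%), 13 in hippocampus (48.9%), 21 in prefrontal cortex (49.3%) and 21 in the average (47.2%). In the average the smallest p belonged to Dusp4 at -0.25 ± 0.11, Jun at -0.23 ± 0.11 and Plk2 at 0.23 ± 0.12 (adjusted p = 0.877, 0.906 and 0.932). Jund, Dusp4, Sik1 and Inhba had a negative difference in all 5 regions, and no member had a positive one in all 5. Some of these differences were far smaller than their SE. They were -0.001 ± 0.24 for Jund in cerebellum, -0.017 ± 0.38 for Inhba in prefrontal cortex and -0.027 ± 0.41 for Sik1 in striatum. Dusp4 was above the highest negative control median on only 1 array. How many of all genes kept the same sign in all 5 regions is not given here, so this is not shown to be particular to the members.

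The low Ala arrays of Fos and Nr4a1 carried the same place in the order of the labels in each region, the second of the 4 Ala arrays (numbers 2, 10, 18, 26 and 34). The labels do not say whether these arrays came from 1 animal. For 9 members (26.5% of 34) this array was the lowest of the 8 of its region in at least 4 of 5 regions, beside 0.214% of all genes. These were Fos, Egr1, Egr4, Arc, Nr4a1, Dusp1, Dusp5, Sik1 and Tiparp. Dusp1, which encodes a MAP kinase phosphatase, measured 10.53, 11.11, 9.57, 10.09 and 11.88 on arrays 2, 10, 18, 26 and 34. The lowest other array of these regions read 11.43 in amygdala, 13.07 in cerebellum, 9.98 in hippocampus, 12.77 in prefrontal cortex and 11.31 in striatum. In 4 regions Dusp1 was thus lowest on the second Ala array, and in the striatum a Thr array was lower. The array was picked out after its values were seen, so no test was made.

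Not every member was low on these arrays. Jund, Egr3, Dusp4, Trib1 and Plk2 had their lowest level on none of them, and Jun, Ptgs2 and Nr4a3 read 10.80, 8.82 and 14.11 on Ala amygdala array 2, the highest of that region. The 6 hippocampal markers had a mean log2 level of 7.47 on that array, against 6.31 to 6.69 in the other Ala arrays and 6.39 to 6.67 in the Thr arrays, and the part of this was not tested. Marker lists on the second Ala arrays were also set against the other arrays of each region. Any array of a region can be the highest or lowest by chance, and other label places are not given here. By mean log2 level, olfactory bulb markers were under the range of the other 7 arrays in 3 regions and thalamic markers in 2, with thalamic markers above it in 1. Blood cell and liver markers were above it in 3 regions and under it in 1, and endothelial, microglial and hippocampal markers were above it in 2 each. Striatal neuron markers were above it in 2 and under it in 1, and choroid plexus markers above it in 1, the amygdala, at 8.82 against at most 6.62 on the other arrays. Excitatory neuron, granule cell and Purkinje cell, and mural cell and meninges markers were within the range in all 5, although single neuronal markers were among the lowest genes on these arrays, with a mean gap to the median of the other arrays of -1.38 for Slc17a6, -1.20 for Tbr1 and -1.16 for Eomes, beside -2.66 for Nr4a1 and -1.62 for Fos. The part of these markers in the low levels was not tested. Array medians were within the range of the other arrays in 4 regions, and 6.17 against a lowest of 6.18 in the striatum. The negative control median of striatal array 34 was 5.85, under the lowest other at 5.89, and the positive control median of cerebellar array 10 was 10.14, above the highest other at 10.09.

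Arrays of other places in the label order also deviated together. Averaged over regions, the member median of the gap to the other arrays was -0.52 for the second place, with 31 of 34 members negative. It was 0.32 for the first, with 4 negative, and 0.20 for the fourth, with 9 negative, both Ala. Among Thr places it was -0.25 for the fifth, with 22 negative, and 0.17 for the eighth, with 6 negative. The median of all genes stayed between -0.01 and 0.02 for all places. Every test here took the 40 arrays as independent, also in the average over regions and in the comparisons between regions.

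Without these 5 arrays, which by their choice raises the Ala means of such genes, limma called 0 members in each region and in the average. Of all genes it then called 0.0601% in amygdala, 0.00% in cerebellum, hippocampus and prefrontal cortex, 0.0935% in striatum and 0.0534% in the average. An unadjusted p under 0.05 was then held by 3 members in amygdala (5.72% of all genes), 0 in cerebellum (1.91%), 5 in hippocampus (3.85%), 0 in prefrontal cortex (2.61%), 1 in striatum (7.11%) and 8 in the average (5.86%). The count of members with a negative difference became 9 of 34 in amygdala (49.1% of all genes), 14 in cerebellum (7492 of 14978 genes), 11 in hippocampus (49.0%), 9 in prefrontal cortex (49.2%), 21 in striatum (45.3%) and 8 in the average (47.0%). The average difference turned to 0.24 for Fos, 0.22 for Egr1, 0.23 for Arc, 0.34 for Npas4, 0.21 for Junb and 0.34 for Nr4a1. The smallest adjusted p of a member in the average was 0.398.

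**Figure D2:**
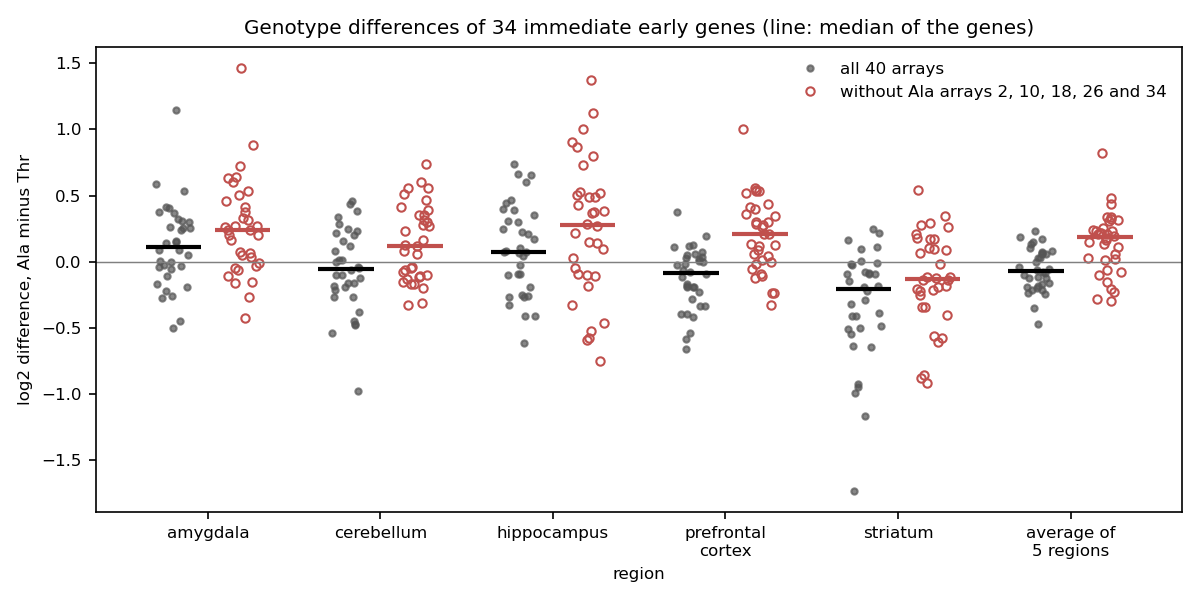
Log2 difference, Ala minus Thr, of the 34 members (points) and its median over members (lines), by region and in the average on the x axis, with all 40 arrays (grey) and without Ala arrays 2, 10, 18, 26 and 34 (red, open). Medians with all arrays lie between -0.20 and 0.11, and without the 5 arrays between -0.13 and 0.28.

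Between regions the members differed widely. In a test of each pair of regions, 27 of 34 members were called in at least 1 pair, beside 34.5% of all genes, at an adjusted p under 0.05 and a difference of at least 1 log2 unit. The level was lowest in cerebellum for 21 members, and highest in prefrontal cortex for 14 and in striatum for 10. These counts rank the means alone and include Klf2, Gadd45b and Plk3, for which no neighbouring pair of regions was called. The matching shares of all genes are not given here, so the counts are not shown to be particular to the members.

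In the cerebellum, 18 members fell and 3 rose against the mean of the other 4 regions, beside 10.1% and 8.69% of all genes. Lower were Plk2 at -4.89 ± 0.15, Egr3 at -3.81 ± 0.16, Ptgs2, the inducible cyclooxygenase gene, at -3.44 ± 0.25 and Egr1 at -3.26 ± 0.33. Plk2 read between 7.85 and 9.31 on the 8 cerebellar arrays, with a median of 8.09, and no array of the other regions read under 11.80. Ptgs2 averaged 4.12 ± 0.34 and Egr3 5.36 ± 0.62 (SD, n = 8 each) in cerebellum, where 0 and 1 of the 8 arrays were above the highest negative control median. The scaffold gene Homer1 followed at -2.82, Nr4a1 at -2.39, Npas4 at -2.38, Dusp6 at -2.35 and Arc at -2.18. The other 9 lower members, Junb, Fosl2, Nr4a3, Nptx2, Egr2, Fosb, Inhba, Egr4 and Sik1, lay between -1.97 and -1.24. Npas4, Fosl2, Nptx2, Fosb, Inhba, Egr4 and Sik1 were above the highest negative control median on 0 of the 8 cerebellar arrays. Junb was above it on 2 and Arc on 3, with a cerebellar Arc mean of 6.29. For these genes, Ptgs2 and Egr3 the difference was thus taken against a level near background. Its size and rank among the members are uncertain. Higher were the nuclear ERK phosphatase gene Dusp5 at 4.32 ± 0.21, Dusp1 at 1.38 ± 0.43 and Ier2 at 1.00 ± 0.14. Dusp5 averaged 12.98 ± 0.52 in cerebellum, against 9.33 ± 0.50 in hippocampus, 9.19 ± 0.83 in prefrontal cortex, 8.14 ± 0.30 in striatum and 7.97 ± 0.45 in amygdala (SD, n = 8 each). Ier2 was also near background at 5.33 ± 0.17 in cerebellum, with 0 of 8 arrays above that median, and its difference fell just under 1 unit in several alternatives. Fos was not called here, and its cerebellar mean of 7.18 ± 0.62 was the second highest after prefrontal cortex. The negative control medians were also higher in cerebellum than in the other regions, and their part in the Fos and Ier2 levels was not tested.

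In the prefrontal cortex, 11 members rose and 0 fell, beside 3.28% and 1.94% of all genes. Nr4a1 was higher by 1.93 ± 0.42, Egr1 by 1.91 ± 0.33, Npas4 by 1.81 ± 0.41 and Arc by 1.39 ± 0.31. The others were Inhba, which encodes an activin subunit, at 1.28, Fosb at 1.21, Dusp6 at 1.14, Nptx2, a secreted pentraxin gene of excitatory synapses, at 1.11, Fos at 1.05, the kinase gene Sik1 at 1.03 and Egr2 at 1.02. Fos was called here alone, at 7.83 ± 1.06 (SD, n = 8). The olfactory bulb markers, 5 of 6 on the array, had a summed linear signal of 1239 to 16129 in the Ala arrays and 1814 to 11682 in the Thr arrays of this region, and at most 736 in amygdala, cerebellum and striatum; their part was not tested.

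In the striatum, 10 members rose and 5 fell, beside 5.71% and 5.20% of all genes. Plk2 was higher by 2.24 ± 0.15, Egr3 by 2.09 ± 0.16, Homer1 by 1.98 ± 0.11 and Egr1 by 1.97 ± 0.33. The size and rank of Egr3 depend on the row kept, as given above. Egr2, Nr4a1, Inhba, Egr4, Npas4 and Arc followed at 1.59, 1.42, 1.41, 1.30, 1.30 and 1.11. Homer1 read between 14.52 and 15.35 in the striatum, above every array of the other regions, of which the highest read 14.41. Lower were Nr4a2 at -3.18 ± 0.58, Dusp5 at -1.73 ± 0.21, Ptgs2 at -1.71 ± 0.25 and Jun at -1.65 ± 0.14, with Nr4a3 at -1.64 ± 0.41. Ptgs2 was above the highest negative control median on 1 of the 8 striatal arrays. The Nr4a members thus split in this region, since Nr4a1 rose while Nr4a2 and Nr4a3 fell.

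In the hippocampus, 6 members rose and 1 fell, beside 3.57% and 2.34% of all genes. Ptgs2 was higher by 3.07 ± 0.25, Nr4a3 by 2.94 ± 0.41, Nr4a2 by 2.40 ± 0.58 and Jun by 1.57 ± 0.14, with Dusp4 at 1.42 and Plk2 at 1.01. Dusp4 was near background here too, above the highest negative control median on 1 of 8 arrays. Ptgs2 measured 8.81, 10.75, 8.62 and 8.91 in Ala arrays, against 10.56, 9.62, 8.91 and 8.40 in Thr arrays. Jun measured 10.62, 10.90, 10.18 and 9.93 in Ala arrays, against 11.19, 11.23, 10.22 and 10.62 in Thr arrays. Both were highest on Ala array 18 and Thr arrays 21 and 22, where the 6 hippocampal markers had mean log2 levels of 9.60, 9.89 and 9.60, against 8.61 to 9.11 on the other 5 arrays. Their summed linear signal ran between 8323 and 16048 in Ala arrays and between 8369 and 23964 in Thr arrays; the part of it was not tested. Dusp1 fell by 1.31 ± 0.43 (adjusted p = 0.0194), and lost that call without Ala array 18, Thr array 21 or Thr array 22.

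In the amygdala, 2 members rose and 3 fell, beside 3.40% and 2.44% of all genes. Ptgs2 was higher by 1.17 ± 0.25 and Nptx2 by 1.02 ± 0.13, while Dusp5 was lower at -1.94 ± 0.21, Inhba at -1.12 ± 0.21 and Arc at -1.02 ± 0.31. Inhba was above the highest negative control median on 0 of the 8 amygdala arrays. Its levels there ran from 5.26 to 6.29, and the amygdala negative control medians from 5.82 to 5.92. Arc, Nptx2 and Ptgs2 came under the 1 unit limit in some alternatives.

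Neighbours in the order of levels often did not differ. Fos ran prefrontal cortex, cerebellum, amygdala, striatum and hippocampus, with no neighbouring pair called and steps of 0.65, 0.36, 0.15 and 0.23. Egr1 and Junb were highest in striatum, with prefrontal cortex lower by 0.05 and 0.08, neither called. Egr1 then dropped by 1.71 to hippocampus and, after the amygdala, by 2.30 to cerebellum, both called. Junb was set apart by its last step alone, 1.72 between amygdala and cerebellum. Arc, Npas4 and Nr4a1 were highest in prefrontal cortex, with striatum lower by 0.22, 0.41 and 0.41, none called.

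**Figure D3:**
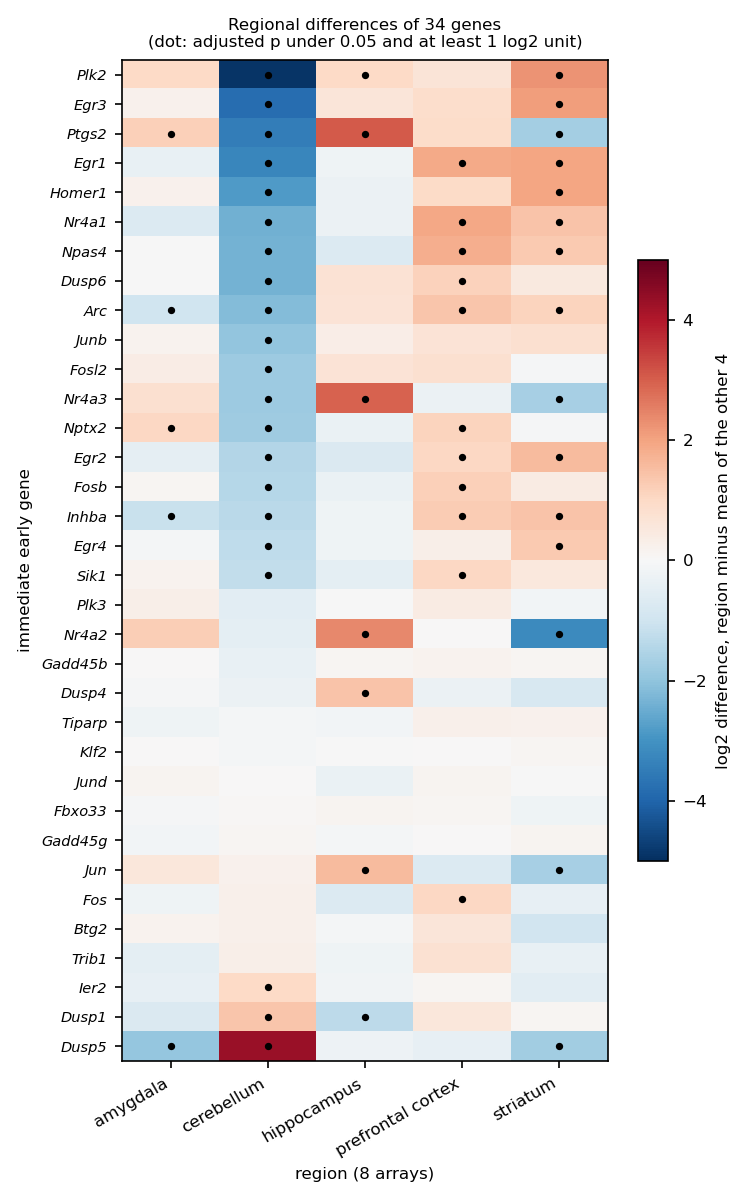
Log2 difference of each region minus the mean of the other 4, for the 34 members (y axis, ordered by the cerebellar difference) and the 5 regions (x axis), with blue for lower and red for higher. Dots mark the calls: 21 in cerebellum, 15 in striatum, 11 in prefrontal cortex, 7 in hippocampus and 5 in amygdala.

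Several members hardly varied. Jund, the constitutive Jun family member, averaged between 10.77 and 11.15 over regions, and Fbxo33 between 10.26 and 10.57. Tiparp, an ADP-ribosyltransferase gene, averaged between 7.33 and 7.70, and Gadd45g between 7.25 and 7.47. Fosl2, an AP-1 gene, was called in the cerebellum alone, at -1.81. Btg2, an antiproliferative gene, averaged between 6.04 in striatum and 7.30 in prefrontal cortex and was called in no region against the others. Gadd45b, Plk3 and the pseudokinase gene Trib1 averaged between 4.71 and 6.37 and were near background in most regions.

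Whether members varied together from array to array was asked after each group's mean was removed. Each of 14977 tested genes was set against Fos over 40 arrays by a permutation test within groups (two-sided, 100000 permutations). Of 33 members, 30 had a positive Pearson's r, beside 51.0% of all genes. A positive r with an unadjusted permutation p under 0.05 was held by 21 members, beside 4.91% of all genes. With p adjusted over all 14977 genes, 6 members were called, all positive, beside 0.0801% of all genes, and these were Nr4a1, Dusp1, Arc, Sik1, Npas4 and Egr1. Adjusted over the 33 relations alone, r called 21 members and Spearman's rho 20, but the members were chosen with results of these data known. The highest were Nr4a1 (r = 0.89, rho = 0.84), Dusp1 (0.89, 0.83), Arc (0.83, 0.75), Sik1 (0.80, 0.65) and Npas4 (0.77, 0.77). For Nr4a1, Dusp1 and Arc the permutation p of r and of rho was 1e-05, the smallest that 100000 permutations can give, and for r the permutation p adjusted over all genes was 0.0250. Sik1 and Npas4 had an adjusted permutation p of 0.0333 and Egr1 of 0.0461. Within single regions (8 arrays each), r with Fos was between 0.76 and 0.98 for Nr4a1 and between 0.64 and 0.99 for Dusp1. In all 5 regions, r was positive for 18 members. Some of these r were small, the lowest of a region being 0.02 for Klf2 and 0.08 for Homer1. The share of all genes is not given here.

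The lowest were Jun (r = -0.24, rho = -0.19), Jund (-0.14, -0.07) and Inhba (-0.07, -0.14), with permutation p adjusted over all genes of 0.716, 0.891 and 0.954. Within regions, r of Jun ran between -0.84 and 0.86, and that of Ptgs2 between -0.95 and 0.81. Arrays share the normalization, and may share animals across regions, which the permutations do not allow for.

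The covariation rested in part on the low Ala arrays. Without the 2 arrays farthest from the median of Fos (Ala prefrontal cortex 26 and Ala cerebellum 10), r was 0.82 for Nr4a1, 0.81 for Dusp1, 0.78 for Arc, 0.71 for Npas4 and 0.63 for Sik1. A positive r with an unadjusted permutation p under 0.05 was then held by 17 members, beside 4.05% of all genes, and after adjustment over all genes 2 were called, Nr4a1 and Dusp1, beside 0.0200%. Jun had an r of -0.51 there, with an adjusted permutation p of 0.504. Without Ala arrays 2, 10, 18, 26 and 34, 11 members had a positive r with an unadjusted permutation p under 0.05, beside 2.19% of all genes, and 0 members were called after adjustment over all genes, beside 0.00%. Nr4a1 then had an r of 0.71, Dusp1 of 0.70, Npas4 of 0.68, Arc of 0.63, Sik1 of 0.51, Egr1 of 0.48 and Junb of 0.32.

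**Figure D4:**
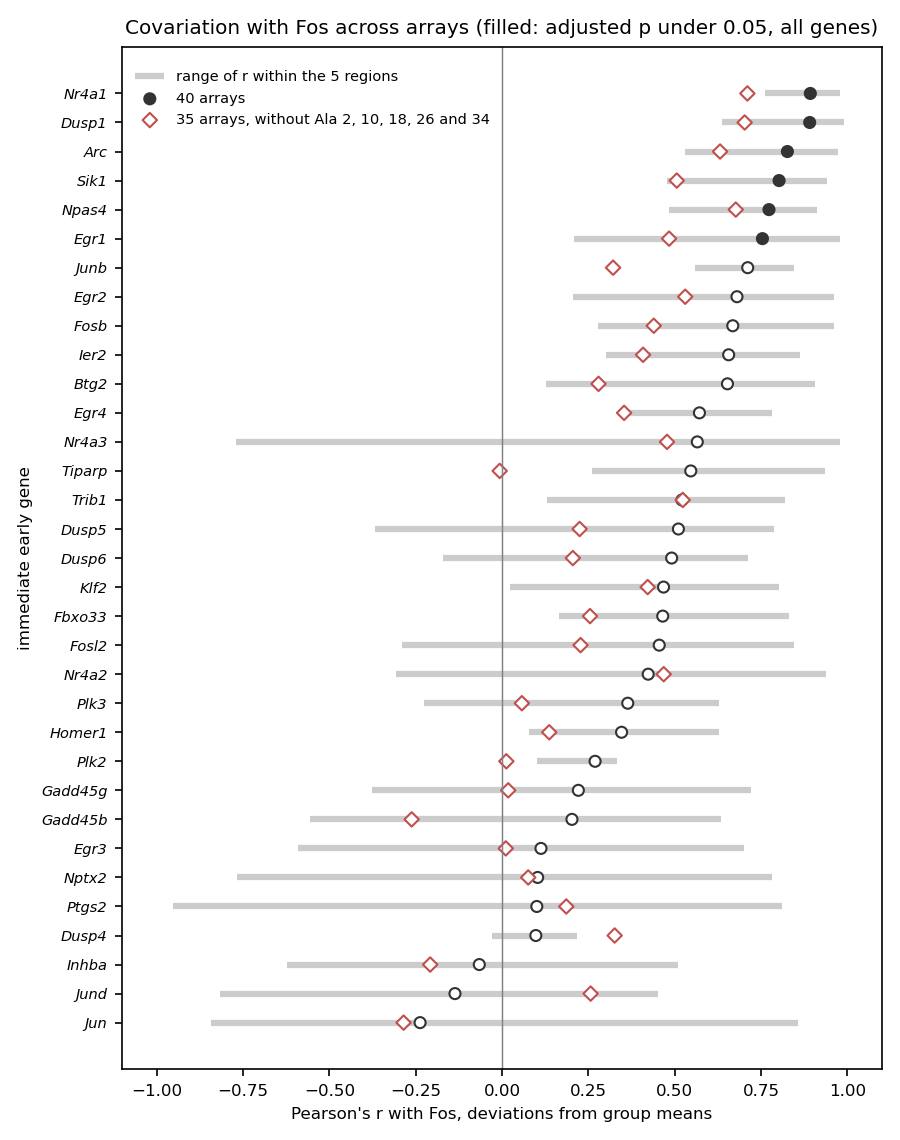
Pearson's r with Fos (x axis) for 33 members (y axis) over deviations from group means, with 40 arrays (circles) and without Ala arrays 2, 10, 18, 26 and 34 (diamonds), filled where the permutation p adjusted over all genes was under 0.05, and the range of r within the 5 regions as a grey bar. Of 33 circles 6 are filled, and of the diamonds 0.

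Genes around the set were counted from lists. Of 34 tested genes that carry activity signals to the nucleus, 0 were called between genotypes in any region or in the average. In the average the smallest p belonged to the kinase gene Mapk8 at 0.27 ± 0.09 and to Srf, which encodes the CArG box factor, at -0.22 ± 0.09 (adjusted p = 0.849 and 0.861). Between regions, Srf was lower in cerebellum at -1.28 ± 0.11 and higher in striatum at 1.13 ± 0.11, and Camk2a, a calcium-dependent kinase gene, was lower in cerebellum at -6.25 ± 0.21. In the cerebellum 6 of the 34 rose and 9 fell, to be read beside the shares of all genes given above for that region. Of 28 tested other rapid response genes, 0 were called between genotypes. Zfp36, which encodes an mRNA decay factor, and Klf6 had the smallest p in the average, at 0.31 ± 0.13 and 0.27 ± 0.13 (adjusted p = 0.864 and 0.905). In the cerebellum, with the same shares of all genes, 1 of these rose and 7 fell, led by the G protein regulator gene Rgs2 at -3.77 ± 0.21.

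Of 18 tested delayed response genes, which follow the immediate early genes, 1 was called between genotypes. Scg2, a secretogranin gene, was lower in the Ala amygdala at -1.38 ± 0.22 (adjusted p = 0.000916). The 8 thalamic neuron markers had a mean log2 level of 7.91 to 8.09 in these Ala arrays, against 8.32 to 8.77 in the Thr arrays. Their summed linear signal was 3859 to 4958 in Ala arrays and 4932 to 8457 in Thr arrays. Slc17a6, a vesicular glutamate transporter gene, averaged 9.18 in Ala arrays and 10.96 in Thr arrays, the largest gap on that list. The others differed less, such as Tcf7l2 at 8.75 and 9.44 and Rora at 10.15 and 10.11. The 7 hypothalamic markers on the array overlapped in mean log2 level, at 5.04 to 5.65 in Ala arrays and 5.57 to 6.23 in Thr arrays. Of these, Cartpt averaged 6.73 in Ala and 8.24 in Thr arrays, Trh 7.52 and 8.63, Avp 4.15 and 5.69, Oxt 5.12 and 5.45, and Pomc 4.41 and 4.49. Pmch at 5.53 and 5.25 and Hcrt at 4.39 and 4.34 went the other way. Apart from Cartpt and Trh, these means were under the negative control medians. The 5 olfactory bulb markers on the array summed to 94.8 to 116 in Ala arrays, against 127 to 159 in Thr arrays, with 0 of the 5 above the highest negative control median. The part of these markers in the Scg2 difference was not tested. In the striatum 17 of the 18 had a negative difference, beside 46.2% of all genes, with a median of -0.14 and none called. The choroid plexus, liver, and mural cell and meninges markers given above separated the same arrays by summed signal, and their part was not tested. Igf1 and Vgf had the smallest p at -0.59 ± 0.32 and -0.56 ± 0.33 (adjusted p = 0.844 and 0.850). Against the other regions, 8 of the 18 rose and 0 fell in prefrontal cortex, and 6 rose and 5 fell in striatum. In hippocampus 5 rose and 3 fell, in amygdala 6 rose and 1 fell, and in cerebellum 1 rose and 6 fell. The shares of all genes that rose and fell, given above for each region, differ between regions, so these counts cannot be compared directly. Bdnf, the neurotrophin gene, was higher in hippocampus at 2.75 ± 0.26 and lower in striatum at -4.03 ± 0.26.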

How the data were processed

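Total RNA of 40 brain samples was measured on Affymetrix arrays. The values deposited by the authors are log2 signals made with RMA (background correction, between-array normalization and probe summary), per the submitters' processing notes; its version and a genome build are not given in the sources used here. No further scaling was applied. Of 28846 rows, 6640 were controls and 19572 had a gene symbol; the row with the highest mean was kept for each of 19505 genes. Genes above log2 4.60, the 30th percentile, on at least 4 arrays were tested (14978). Group means (10) were estimated by limma (version 3.58.1, R version 4.3.3) with lmFit and trended eBayes and 30 residual degrees of freedom, and p-values were adjusted over all tested genes by Benjamini-Hochberg. All adjusted p-values of differences are from this limma fit, called under 0.05, and between regions also at 1 log2 unit or more. The limma steps were tested on simulated data.

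Named genes followed a rule: 6 core genes array by array, the 3 smallest p of each genotype comparison, up to 4 called per direction and region, the 5 highest and 3 lowest correlations, and 2 of each list, or called genes; other members are given by range. Examples beyond it were chosen after their values were seen. The members and lists were chosen with earlier results of these data known. Alternatives covered scaling, filter, rows per gene, spread estimate, array weights, threshold, regions fitted alone and leaving out arrays or regions.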

Additional observations from a re-analysis of the deposited data

Results flagged for a closer look

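In 190 groups of 4 arrays (19 named members in 10 groups), 1 array stood apart 11 times, with a gap to its nearest neighbour that, as a share of the group's range, was above Dixon's 95% critical value for 4 samples. Chance alone gives about 1 in 20. Of these, 3 were low Ala arrays: Fos at 5.90 on cerebellar array 10, and Nr4a1 at 7.63 on hippocampal array 18 and at 7.98 on prefrontal array 26. The others in Ala groups were Dusp4 at 5.34 on cerebellar array 9, Egr3 at 6.85 on cerebellar array 12, Gadd45g at 7.75 on amygdala array 4 and Plk2 at 13.65 on hippocampal array 20, all high. In Thr groups, Arc at 6.77 on amygdala array 6, Jun at 9.59 on cerebellar array 13 and Nr4a3 at 11.48 on amygdala array 5 stood low, and Jun at 8.42 on striatal array 39 stood high. Without cerebellar array 12, the cerebellar Egr3 difference was 0.04 in place of 0.46.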

How the results depend on the processing

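Of 4030 values computed under alternatives, 3969 kept their direction and side of the threshold or, for counts and medians, stayed near the reported value, 41 lost a call, 1 gained one, 17 changed sign and 2 counts moved by over 1.5 times. All sign changes were in differences or correlations that had not passed the test. Leaving out the second Ala array of each region, chosen after seeing the data, turned the average difference of Fos to 0.24, Egr1 to 0.22, Arc to 0.23, Npas4 to 0.34, Junb to 0.21 and Nr4a1 to 0.34, the prefrontal difference of Arc to 0.21, the cerebellar difference of Nr4a3 to 0.16 and the r of Jund with Fos to 0.26. It also moved the members correlated with Fos to 7, against 21 with p adjusted over the 33 relations, and adjustment over all genes, added after seeing the data, moved them to 6. Prefrontal Ala array 26 alone turned Npas4 to 0.056, Junb to 0.0085 and prefrontal Arc to 0.21, and cerebellar Ala array 10 turned Nr4a3 to 0.16. The r of Jund with Fos was 0.075 without the 2 farthest arrays, and that of Inhba was 0.017 without striatal Ala array 36, 0.028 without the hippocampus and 0.10 without the striatum. The cause was not tested beyond these arrays. Leaving out each array gave 0 genotype calls throughout, and between regions 20 to 21 calls in cerebellum, 8 to 13 in prefrontal cortex, 15 to 16 in striatum, 5 to 7 in hippocampus, 4 to 6 in amygdala and 26 to 27 between pairs. Members correlated with Fos, adjusted over the 33 relations, numbered 16 to 21. Where a single array changed a sign, the other end of the range was -1.54 for cerebellar Nr4a3, -1.07 for prefrontal Arc, -0.27 for Npas4 and -0.16 for Junb in the average, and -0.20 for the r of Inhba. The member median ran between -0.11 and 0.24 in amygdala, -0.14 and 0.12 in cerebellum, 0.03 and 0.28 in hippocampus, -0.26 and 0.21 in prefrontal cortex and -0.32 and -0.13 in striatum. Median centring moved the median of all genes by up to 0.12 and quantile normalization by up to 0.06. No paired analysis was possible because the label numbers 1 to 40 are unique and the groups share none; the place in the label order is an order of deposit, not a stated pairing. Levels near the negative controls, as for Ier2, Klf2, Dusp4 and Trib1, limit what these probes can show.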

Other observations

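Counted over all 34 members, the arrays of 1 group could differ as a block. On Ala prefrontal cortex array 26, 32 members were under their group mean, with a median deviation of -0.73 log2 units, and on array 28 of that group 4 members were, with a median of 0.54. On the Thr amygdala array 8, 3 members were under the group mean. Of 14978 genes, 6 had their lowest level of every region on the second Ala array: Fos, Nr4a1, Nr1d2, Pcsk1, Pisd-ps3 and Xlr3b, named after their values were seen.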
